A study of Mus musculus with 4 samples.

Results

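This comparison covers the 11467 genes, of 45777 listed, whose FPKM reached 1 in wild-type (WT) or Dusp6-knockout (KO) primary mouse hepatocytes that had been given palmitic and oleic acid. FPKM are read counts scaled to transcript length and library size. The genes were chosen by that level alone and not by any difference between genotypes. A gene could still pass through only the library in which it was high. Hepatocytes were cultured for 3 h and then received palmitic acid at 0.5 mM together with oleic acid at 1 mM for 24 h. A matching KO and WT pair was left untreated, which gives 4 groups of 1 library each. No source used here gives the vehicle, the strain, sex and age of the mice, the number of animals behind a culture, the form of the Dusp6 allele or whether WT animals were littermates.

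Dusp6 codes for a cytoplasmic phosphatase that switches off ERK, the last kinase of the Ras, Raf and MEK cascade. ERK turns on a short-lived set of immediate early transcription factors, and these in turn induce feedback inhibitors, among which Dusp6 itself belongs. In the liver, long-chain fatty acids are ligands of the nuclear receptor PPARα, which drives omega-hydroxylation, peroxisomal and mitochondrial oxidation and ketogenesis, and palmitic acid is also known to raise inflammatory and endoplasmic reticulum stress transcripts. Sterol synthesis is under a separate factor, SREBP2, which is activated when membrane sterol is low.

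Each group holds 1 library, so the differences stand without replicates and no test was run. A gene is called higher or lower in KO when log2(FPKM + 1) in KO minus that in WT, taken relative to the median gene, is 1 or more in size (2-fold). The median gene is that of the 5903 genes reaching FPKM 5 in all 4 libraries, and it stood 0.38 higher in KO than in WT on the deposited log2 scale with fatty acids, against 0.00 untreated. Every log2 difference below is relative to this median gene unless the deposited scale is named. Ratios of CPM (reads scaled to the library total) carry an exact binomial 95% interval that covers counting error only, and they are not shifted by the median gene.

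The libraries held 89069900 reads (WT) and 97364292 reads (KO) with fatty acids, and 87272191 (WT) and 85423156 (KO) untreated. Dusp6 followed the genotype labels, at 348 reads in KO against 22333 in WT with fatty acids, a CPM ratio of WT to KO of 70.2 (63.1 to 78.2). Abundant RNAs took unlike shares of the pair. The 50 most abundant genes held 24.2% of reads in KO and 37.8% in WT, and Rn7s1 with Rn7s2, the RNAs of the signal recognition particle, held 2.60% and 8.20%. The 22 major urinary protein (Mup) genes held 4.11% and 11.7%. The nuclear RNAs Malat1 (0.279% in KO and 0.794% in WT) and Rn7sk (0.234% and 0.665%) and the mitochondrial ribosomal RNAs (0.894% and 2.09%) were also lower in KO. Their part in the differences below was not tested. In bulk RNA, fewer cells of a type and less RNA per cell cannot be told apart.

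With fatty acids, 372 of 11467 genes (3.24%) were higher in KO and 995 (8.68%) were lower. The balance depended on the scale, because on the deposited scale 1172 (10.2%) were higher and 498 (4.34%) lower. Log2 differences ran from -0.46 at the 25th percentile to 0.30 at the 75th, and the tails reached -1.29 at the 5th and 0.86 at the 95th. Just inside the rule lay the glutathione reductase Gsr (log2 difference 1.00, FPKM 236 in KO and 90.3 in WT) and the apolipoprotein Apoa2 (-1.01, 2831 and 4379), and just outside lay Gna11 (14.3 and 4.91) and Saysd1 (10.3 and 16.4).

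**Figure D1:**
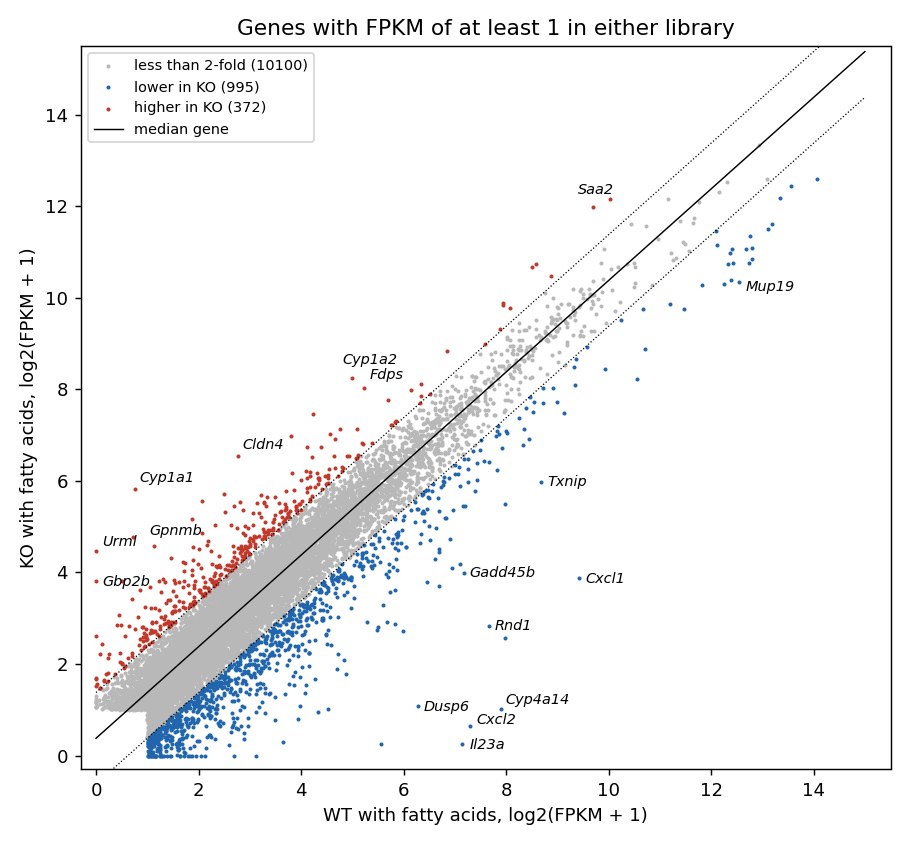
Level of each of the 11467 genes in the KO library (vertical axis) against the WT library (horizontal axis), both with fatty acids, as log2(FPKM + 1), with 1 point a gene. The solid line marks the median gene and the dotted lines 2-fold either side; the 995 lower genes reach farther from the line (Il23a, Cyp4a14, Cxcl2) than the 372 higher ones (Cyp1a1, Urml, Gbp2b), and on the deposited scale the counts are 498 lower and 1172 higher.

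Secreted inflammatory signals were among the lowest genes in KO. Il23a, which codes for the p19 subunit of a cytokine that supports T helper cells (chromosome 10, 128296140 to 128298084, mm10), had an FPKM of 0.192 in KO and 140 in WT with fatty acids, and of 0.367 and 5.73 untreated. WT with fatty acids was thus the 1 library with a high level, and the CPM ratio of WT to KO was 718 (503 to 1065). The neutrophil chemokine Cxcl1 stood at 13.6 in KO and 684 in WT with fatty acids and at 8.64 and 135 untreated, and its neighbour Cxcl2 at 0.561 and 157, then 0.690 and 21.7. Both KO libraries lay below both WT libraries for each of these genes.

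Enzymes of fatty acid and retinol metabolism formed another block of the lowest genes, interleaved in rank with the inflammatory signals. The omega-hydroxylases Cyp4a14 (log2 difference -7.25), Cyp4a10 (-5.81) and Cyp4a32 (-3.28), the peroxisomal bifunctional enzyme Ehhadh (-3.12), the pyruvate dehydrogenase kinase Pdk4 (-3.37) and the retinol saturase Retsat (-3.30) belong to it. Retsat was at an FPKM of 17.2 in KO and 137 in WT with fatty acids, and at 15.6 and 147 untreated. Pdk4 behaved otherwise, at 12.05 in KO and 103 in WT with fatty acids but at 25.8 and 19.2 untreated. The niacin and ketone receptor gene Hcar2 was at 1.03 in KO and 22.2 in WT (CPM ratio 21.8, 19.1 to 25.1), and the aldose reductase family gene Akr1b7 at 3.25 and 27.8 (8.66, 7.85 to 9.57).

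Regulators completed the lowest set. The small GTPase Rnd1, which loosens actin stress fibres, was at an FPKM of 6.15 in KO and 202 in WT with fatty acids, and at 5.68 and 23.3 untreated. The stress-response gene Gadd45b was at 14.95 and 144, then 12.3 and 39.1, and the adhesion molecule Icam1 at 5.68 and 43.5, then 4.44 and 24.9. For these genes the KO levels lay close together in both conditions while the WT level was higher with fatty acids. The serine protease inhibitor Serpina3c differed about as far in either condition (log2 difference -5.70 with fatty acids and -4.87 untreated), and the monocyte chemokines Ccl7 (-3.76) and Ccl2 (-3.34), the RNA-binding protein gene Zfp36l1 (-3.09) and the urinary protein gene Mup6 (-3.49) were also among the 20 lowest.

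**Figure D2:**
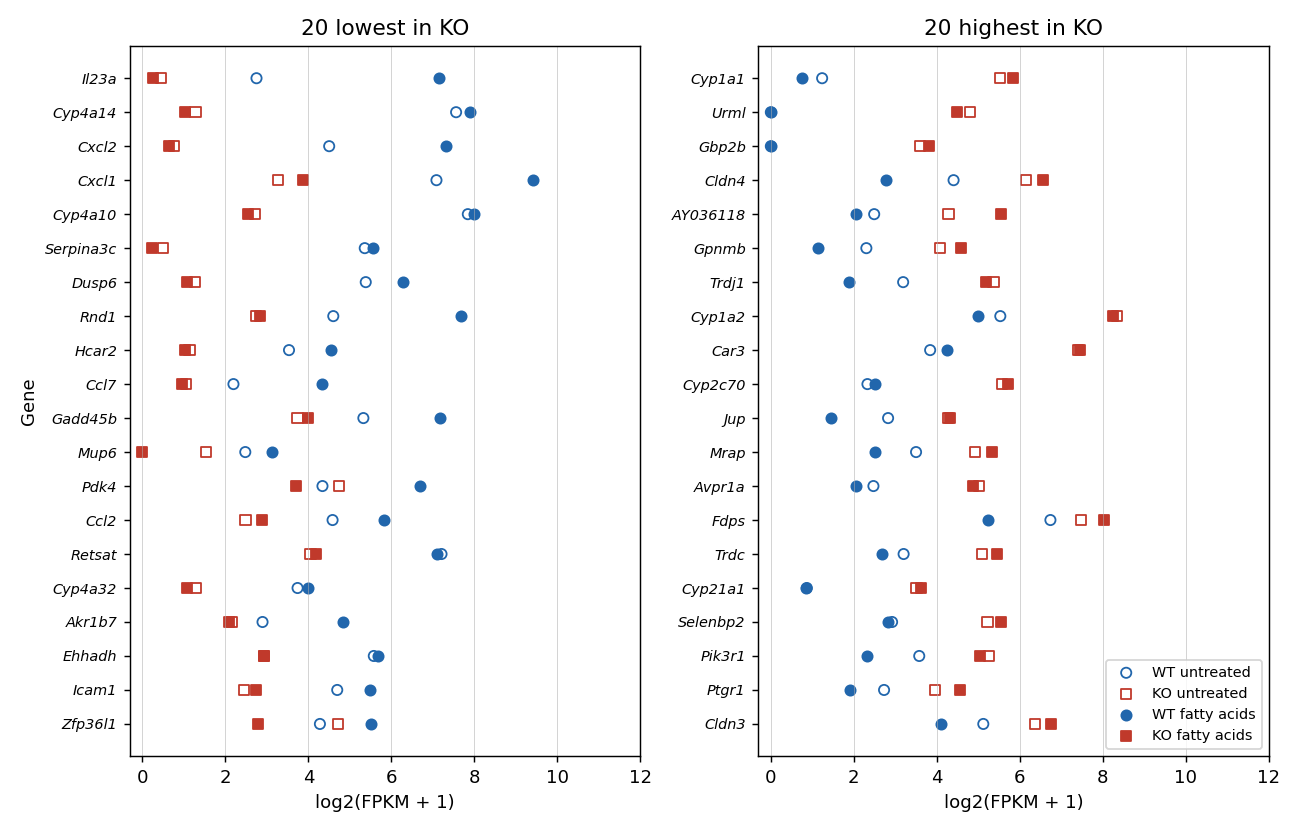
Levels, as log2(FPKM + 1), of the 20 lowest and 20 highest genes in all 4 libraries; circles are WT and squares KO, filled with fatty acids and open untreated, with 1 library a symbol and no error bars since no group has replicates. In most lowest genes the 2 KO squares lie together and the filled WT circle lies farthest right, while for Pdk4 and Zfp36l1 the open KO square lies right of the open WT circle; in the highest genes both KO squares lie right of both WT circles.

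Among the 20 highest genes, cytochrome P450 and other liver enzymes were prominent. Cyp1a1, which oxidises aromatic hydrocarbons (chromosome 9), was at an FPKM of 56.0 in KO and 0.687 in WT with fatty acids and at 45.1 and 1.35 untreated, a CPM ratio of KO to WT of 80.1 with fatty acids (69.3 to 93.0). Its neighbour in function Cyp1a2 was at 303 and 31.0, then 321 and 45.1. Cyp2c70, a muricholic acid enzyme, was at 51.1 and 4.68, then 46.3 and 4.02. Both KO libraries lay above both WT libraries in each case, with log2 differences of 4.70, 2.87 and 2.82 with fatty acids and 4.29, 2.80 and 3.24 untreated.

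The rest of the highest genes were of varied function. The steroid 21-hydroxylase Cyp21a1 was at an FPKM of 11.3 in KO and 0.813 in WT, the carbonic anhydrase Car3 at 174 and 17.9, and the vasopressin receptor Avpr1a at 28.2 and 3.16. The melanocortin receptor accessory protein gene Mrap was at 39.2 and 4.69, the selenium-binding protein gene Selenbp2 at 45.4 and 6.04, and the prostaglandin reductase Ptgr1 at 22.5 and 2.72. Pik3r1, which codes for the p85α regulatory subunit of phosphoinositide kinase in insulin signalling, was at 31.8 and 4.003 (CPM ratio 7.96, 7.66 to 8.29). These genes were also higher untreated, with log2 differences from 1.23 for Ptgr1 to 3.57 for Car3. The T cell receptor delta constant gene Trdc, at 42.9 and 5.44, and the segment Trdj1, which rests on 200 and 15 reads, lie side by side on chromosome 14.

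Junction genes stood out among the highest. Claudin genes Cldn4 and Cldn3, which code for tight junction proteins, were at FPKM 92.8 and 106 in KO against 5.79 and 16.2 in WT with fatty acids, and at 69.7 and 81.6 against 20.1 and 33.7 untreated. Plakoglobin (Jup) was at 18.8 and 1.75, then 18.3 and 6.08. In all 3 genes the KO levels lay above the WT levels, and WT with fatty acids was the lowest library. Of 24 measured claudin, keratin and junction genes, 3 were higher and 1, Cldn14 (4.75 and 18.4), was lower, and the list median was -0.07 (0.31 on the deposited scale). Among all measured genes 3.24% were higher and 8.68% lower.

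The 5 genes below had the most reads in 1 library of the pair and none in the other. The guanylate-binding protein gene Gbp2b had 4134 reads in KO and 0 in WT, 1261-fold higher against a floor of 3 reads in the empty library and at least 1025-fold higher by the exact 95% limit. The long noncoding RNA Urml had 3563 and 0, 1086-fold higher against that floor and at least 883-fold by the exact limit. Both were also read in KO and not in WT untreated, with 2974 and 4017 reads. In the other direction, Gm38495 had 2232 reads in WT and 0 in KO with fatty acids and 0 in both untreated libraries. The noncoding LOC115486514 had 1278 reads in WT and 0 in KO, and Mup6 had 702 and 0, whereas untreated these were read in both genotypes. The Mup copies are nearly identical in sequence, so the authors' counting could divide reads among them.

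Promoter sequences of 4 genes are shown because 3 of them, Cxcl1, Cxcl2 and Nfkbia, are textbook NF-κB targets among the lower genes and the other, Hmgcs1, is a textbook SREBP2 target among the higher ones. They were chosen because they hold a match. The windows of 2 other lower genes searched for the same NF-κB motif, Icam1 and Gadd45b, held 0 matches and are not printed. Each window runs from 250 bases before to 50 after the RefSeq transcription start on GRCm38.p6 (mm10), printed 5′ to 3′ on the gene's strand. Capitals mark matches on either strand to GGGNNTTCC or to its form with 3 free letters between GGG and TTCC, which can overlap, in the first 3 genes, and to TCACNCCAC in Hmgcs1. The windows are chr5:90890995-90891294 (plus strand) for Cxcl1, chr5:90903649-90903948 (plus) for Cxcl2, chr12:55492598-55492897 (minus) for Nfkbia and chr13:119690101-119690400 (plus) for Hmgcs1.
Cxcl1: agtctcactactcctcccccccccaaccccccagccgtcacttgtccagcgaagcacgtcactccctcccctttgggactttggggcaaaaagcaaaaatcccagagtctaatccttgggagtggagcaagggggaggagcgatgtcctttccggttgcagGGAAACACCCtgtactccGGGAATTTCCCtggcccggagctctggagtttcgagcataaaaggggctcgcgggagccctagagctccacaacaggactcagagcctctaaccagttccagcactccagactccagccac
Cxcl2: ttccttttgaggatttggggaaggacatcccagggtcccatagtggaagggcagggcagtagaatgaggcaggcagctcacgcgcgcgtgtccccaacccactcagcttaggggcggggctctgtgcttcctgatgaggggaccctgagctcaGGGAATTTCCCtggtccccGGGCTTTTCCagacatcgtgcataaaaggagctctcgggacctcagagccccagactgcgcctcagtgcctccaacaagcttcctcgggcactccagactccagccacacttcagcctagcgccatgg
Nfkbia: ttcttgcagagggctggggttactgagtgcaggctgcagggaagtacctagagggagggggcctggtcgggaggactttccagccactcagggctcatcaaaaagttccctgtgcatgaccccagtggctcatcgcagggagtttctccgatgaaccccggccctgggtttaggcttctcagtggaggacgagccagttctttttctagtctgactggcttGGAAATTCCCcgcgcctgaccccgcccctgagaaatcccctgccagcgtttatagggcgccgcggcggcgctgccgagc
Hmgcs1: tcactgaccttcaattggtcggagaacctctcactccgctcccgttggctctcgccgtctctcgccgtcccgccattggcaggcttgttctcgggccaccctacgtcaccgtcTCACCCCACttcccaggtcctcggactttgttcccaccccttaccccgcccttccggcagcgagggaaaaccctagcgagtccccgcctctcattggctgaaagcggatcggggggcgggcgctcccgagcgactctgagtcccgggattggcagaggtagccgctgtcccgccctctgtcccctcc
In Cxcl1 the matches begin 89, 71 and 70 bases before the start, and in Cxcl2 97, 96 and 78 bases before it, the adjacent pair in each being 1 overlapping stretch. The single Nfkbia match begins 29 bases before the start and the Hmgcs1 match 137 bases before it.

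The motif counts over lists were small. Of the 16 NF-κB list members with a promoter in the table, 6 (37.5%) held GGGNNTTCC, and of 11 chemokines 4 (36.4%) did. Among all 27025 genes with a promoter 6.58% held it, among 8478 measured genes 8.55%, among 608 lower genes 9.38% and among 284 higher genes 7.04%. The form with 3 free letters was in 6 of 16, in 5 of 11 (45.5%), and in 6.31% of all genes, 7.37% of measured genes, 9.21% of lower and 5.28% of higher genes. The lower genes as a whole therefore stood near all measured genes for this motif. The AP-1 motif TGAGTCA was in 7.89% of lower, 5.63% of higher and 4.75% of measured genes, and TCACNCCAC was in 1 of 17 cholesterol list genes (5.88%) and 1.43% of measured genes. A match is a description of letters in this window and not a bound site.

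Chemokines are secreted proteins that attract leukocytes. Of 16 measured, 11 were lower in KO and 0 higher, with a median log2 difference of -1.47 beside -0.05 over all measured genes (9 lower, 1 higher and -1.09 on the deposited scale). The all-gene shares were 8.68% lower and 3.24% higher. Ccl3, Ccl4, Ccl5, Ccl7, Cxcl2 and Cxcl3 reached the level filter only in WT, and Ccl6 and Cxcl12 only in KO. The filter therefore bears on this count and median. The interferon-inducible Cxcl10 was at an FPKM of 13.9 in KO and 51.2 in WT with fatty acids, and at 13.6 and 21.8 untreated. Chemokines that did not pass were Ccl25 (-0.52), Ccl27a (-0.24), Ccl6 (-0.22), Cxcl12 (0.24) and Cxcl9 (0.80).

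NF-κB is the factor that most of these signals share in textbooks, and a list of its own inhibitors, subunits and targets was examined beside them. Of 24 measured, 14 were lower and 0 higher, with a median of -1.18 (8 lower and -0.80 on the deposited scale), and the untreated pair had 6 lower and a median of -0.39. The inhibitor IκBα gene Nfkbia was at FPKM 11.2 in KO and 56.2 in WT with fatty acids, and at 8.68 and 22.8 untreated. The deubiquitinase Tnfaip3 (A20) was at 1.89 and 16.1, then 2.23 and 4.64. The nuclear inhibitor Nfkbiz was at 0.925 and 7.70 with fatty acids but at 1.97 and 2.001 untreated, so its 2 untreated libraries were level. The subunit genes Nfkb2 (-1.57), Nfkb1 (-1.50) and Relb (-1.38) were lower and Rela (-0.52) did not pass, nor did the inhibitors Nfkbie (-0.64), Tnip1 (-0.27) and Nfkbib (-0.05). In the NF-κB list Il23a, Nfkbiz, Ptgs2 and Cd83 reached the level filter only in WT. Of 25 cytokines and receptors 4 were lower, namely Il1rn (2.86 in KO and 16.9 in WT), Il22ra1 (0.0572 and 2.27), Il1b (0.574 and 2.48) and Tnf (0.617 and 2.19), and the leukaemia inhibitory factor receptor Lifr (35.02 and 11.9) was higher. Il22ra1, Il1b and Tnf also reached the filter only in WT. Over all measured genes 8.68% were lower and 3.24% higher.

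Immediate early genes and ERK feedback genes bear on the kinase that Dusp6 acts on. Beside them, 8.68% of all measured genes were lower and 3.24% higher. Of 20 measured immediate early factors, 7 were lower and 0 higher (median -0.73; 5 lower, 1 higher and -0.35 on the deposited scale). The zinc-finger factor Egr1 was at FPKM 2.26 in KO and 7.56 in WT with fatty acids, and at 9.27 and 3.73 untreated, so that the order of the genotypes was opposite in the 2 pairs. Klf10, a TGF-beta inducible repressor, was at 34.1 and 83.4, then 42.6 and 27.2. The AP-1 genes Fos (1.04 and 3.47) and Fosl1 (8.51 and 18.1), with Maff (38.4 and 81.2), Atf3 (34.4 and 62.2) and Myc (20.1 and 33.1), made up the rest of the lower genes, and Jun (-0.16), Junb (-0.75) and Srf (-0.05) did not pass.

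Of 19 ERK feedback genes and MAPK phosphatases, 4 were lower and 0 higher, with a median of -0.48 (-0.10 on the deposited scale, again 4 lower). Dusp6 itself is 1 of the 4, and over all measured genes 8.68% were lower and 3.24% higher. The nuclear ERK phosphatase Dusp5 was at 8.49 in KO and 22.8 in WT, Phlda1 at 8.08 and 20.6, and the Ras inhibitor Spred3 at 0.298 and 1.61. Spred3 reached the level filter only in WT. Untreated, Phlda1 was at 30.8 in KO and 17.1 in WT, the other way round. Of 19 Ras, Raf, MEK and ERK genes the MEK2 gene Map2k2 alone passed (4 were higher on the deposited scale), at 56.8 in KO and 16.2 in WT (37.2 and 39.8 untreated), and among 17 growth factors and receptors the EGF receptor ligand Areg was lower (2.32 and 13.4, then 1.58 and 1.78) and Pdgfa was higher (26.6 and 8.68).

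A minority of mRNA decay factors passed, where 8.68% of all measured genes were lower and 3.24% higher. Of 17, 4 were lower and 0 higher (median -0.54; 2 lower, 1 higher and -0.16 on the deposited scale). Zfp36l1 was at FPKM 5.95 in KO and 44.6 in WT with fatty acids, but at 25.2 and 18.4 untreated. Zfp36 (tristetraprolin) was at 3.75 and 16.9, then 8.59 and 3.85. In both genes KO lay below WT with fatty acids and above it untreated, and this difference between pairs was not tested. The endoribonuclease Zc3h12a was at 0.550 and 1.98, and the antiproliferative Btg2 at 13.3 and 24.9, a log2 difference of -1.23 that was -0.86 on the deposited scale. Zc3h12a reached the level filter only in WT. Among those that did not pass were Zfp36l2 (-0.38), Rc3h1 (-0.41) and Rc3h2 (-0.53).

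Fatty acid oxidation genes were lower in part, beside 8.68% lower and 3.24% higher among all measured genes. Of 26 mitochondrial oxidation and ketogenesis genes, 7 were lower and 0 higher (median -0.72; 4 lower and -0.35 on the deposited scale). The acyl-CoA dehydrogenase Acad11 was at FPKM 8.34 in KO and 30.5 in WT with fatty acids, and at 7.87 and 20.1 untreated, and the dienoyl-CoA reductase Decr1 at 17.9 and 38.4. Of 33 peroxisomal genes 5 were lower and 2 higher (median -0.09, 0.29 on the deposited scale, where 1 was lower and 5 higher). Of 13 Cyp4 genes 5 were lower (4 on the deposited scale), all of them Cyp4a genes, and Cyp4f14 was higher (13.01 in KO and 2.82 in WT).

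Genes that fatty acids and glucose are known to induce followed. Txnip, a thioredoxin-binding inhibitor of glucose uptake, was at FPKM 62.2 in KO and 411 in WT with fatty acids, and at 62.5 and 90.9 untreated (CPM ratio of WT to KO with fatty acids 6.70, 6.603 to 6.81). The lipoprotein lipase inhibitor Angptl4 was at 25.3 and 120, then 22.9 and 55.7, and the lipase inhibitor Hilpda at 21.8 and 102, then 19.1 and 37.4. For all 3 the KO level was alike in both conditions and WT with fatty acids was the highest library. Of 18 lipid droplet genes 7 were lower and 1, Cidea (5.15 and 0.478), was higher (median -0.70; 3 lower, 2 higher and -0.33 on the deposited scale). Of 22 uptake and activation genes 6 were lower and 3 higher, the latter including Acsl5 (455 and 115) and Angptl8 (17.1 and 2.99), and their median of -0.35 became 0.02 on the deposited scale. Both lists stand beside 8.68% lower and 3.24% higher over all measured genes.

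Some genes of nitrogen and methionine metabolism were lower, beside 8.68% lower and 3.24% higher over all measured genes. Of 16 urea cycle and ammonia genes 6 were lower and 0 higher (median -0.46; 4 lower, 1 higher and -0.08 on the deposited scale). Carbamoyl phosphate synthetase Cps1 was at FPKM 18.6 in KO and 97.1 in WT, and arginase Arg1 at 20.8 and 102. Untreated they were at 22.01 and 69.8, and at 15.4 and 76.3, so that both KO libraries lay below both WT libraries. Otc (-0.14), Nags (0.41) and Slc25a15 (0.60) did not pass. Glutamine synthetase Glul was at 48.4 and 89.3 with fatty acids and at 51.8 and 45.5 untreated. Of 16 methionine cycle and transsulfuration genes 5 were lower and 1 higher (median -0.72; 4, 2 and -0.35 on the deposited scale), led by the methionine adenosyltransferase Mat1a at 43.8 and 252, the homocysteine hydrolase Ahcy at 74.7 and 225 and the betaine methyltransferase Bhmt at 271 and 653. In that list Gamt was higher (20.5 and 6.95) and Cth (0.70) and Mat2b (0.17) did not pass. Of 22 gluconeogenesis and insulin response genes 6 were lower and 1 higher (median -0.33, 0.05 on the deposited scale), among them the cytosolic Pck1 (0.916 in KO and 8.89 in WT) against the mitochondrial Pck2 (9.59 and 1.64).

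The major urinary proteins are abundant lipocalins that growth hormone induces in male mouse liver. Of 21 measured Mup genes 18 were lower and 0 higher, with a median of -1.97 and a range from -3.49 to 0.28. The lower share over all measured genes was 8.68%. Mup1 was at FPKM 2910 in KO and 8874 in WT with fatty acids and at 2316 and 6923 untreated, and Mup17 at 1742 and 6867, then 1532 and 5497. In the list of growth hormone axis genes with part of the Mup family, 11 of 21 measured genes were lower, also 11 on the deposited scale (median -1.50, and -1.12 there). Relative to the median gene these were 10 Mup genes and the feedback inhibitor Cish, while the receptor Ghr (0.16), Stat5b (0.03) and Igf1 (0.42) did not pass.

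Cholesterol synthesis was the list with the largest share of higher genes, beside 3.24% higher and 8.68% lower over all measured genes. Of 25 measured, 13 were higher in KO and 0 lower, with a median of 1.13 (18 higher and 1.503 on the deposited scale), against 6 higher and a median of 0.61 untreated. The farnesyl diphosphate synthase Fdps was at FPKM 259 in KO and 36.7 in WT with fatty acids, and at 177 and 106 untreated (CPM ratio of KO to WT with fatty acids 7.13, 6.92 to 7.34). The mevalonate decarboxylase Mvd was at 9.13 and 1.56, then 6.94 and 4.63. In both genes WT with fatty acids was the lowest of the 4 libraries. At the other end of the list Srebf2 (0.04) and Dhcr7 (-0.01) did not pass. Of 26 fatty acid and triglyceride synthesis genes 6 were higher and 3 lower (median 0.46; 10 higher, 0 lower and 0.84 on the deposited scale), with the desaturase Fads2 at 91.8 and 24.0.

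The list of targets of the amino acid response factor ATF4, serine synthesis genes among them, had a part on the higher side. Over all measured genes 3.24% were higher. Of 22 measured, 7 were higher and 1 lower (median 0.79; 14, 0 and 1.16 on the deposited scale), while untreated the median was 0.09 with 2 higher. The phosphoglycerate dehydrogenase Phgdh was at FPKM 21.7 in KO and 3.01 in WT with fatty acids, and at 17.1 and 13.7 untreated. The phosphatase Psph was at 24.9 and 7.35, then 16.9 and 18.1. Here too the low library was WT with fatty acids. Atf4 itself did not pass (-0.01), and Ddit3 (CHOP) was lower at -1.02. Of 26 reticulum folding genes 3 were lower and 0 higher (median -0.30, but 0.08 on the deposited scale with 2 lower): the stress sensor Ern1 (18.7 in KO and 56.6 in WT, then 31.0 and 32.8), the cochaperone Dnajb9 (31.2 and 89.4) and the chaperone Hspa5 (858 and 1636). That share lies near the 8.68% of all measured genes that were lower.

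**Figure D3:**
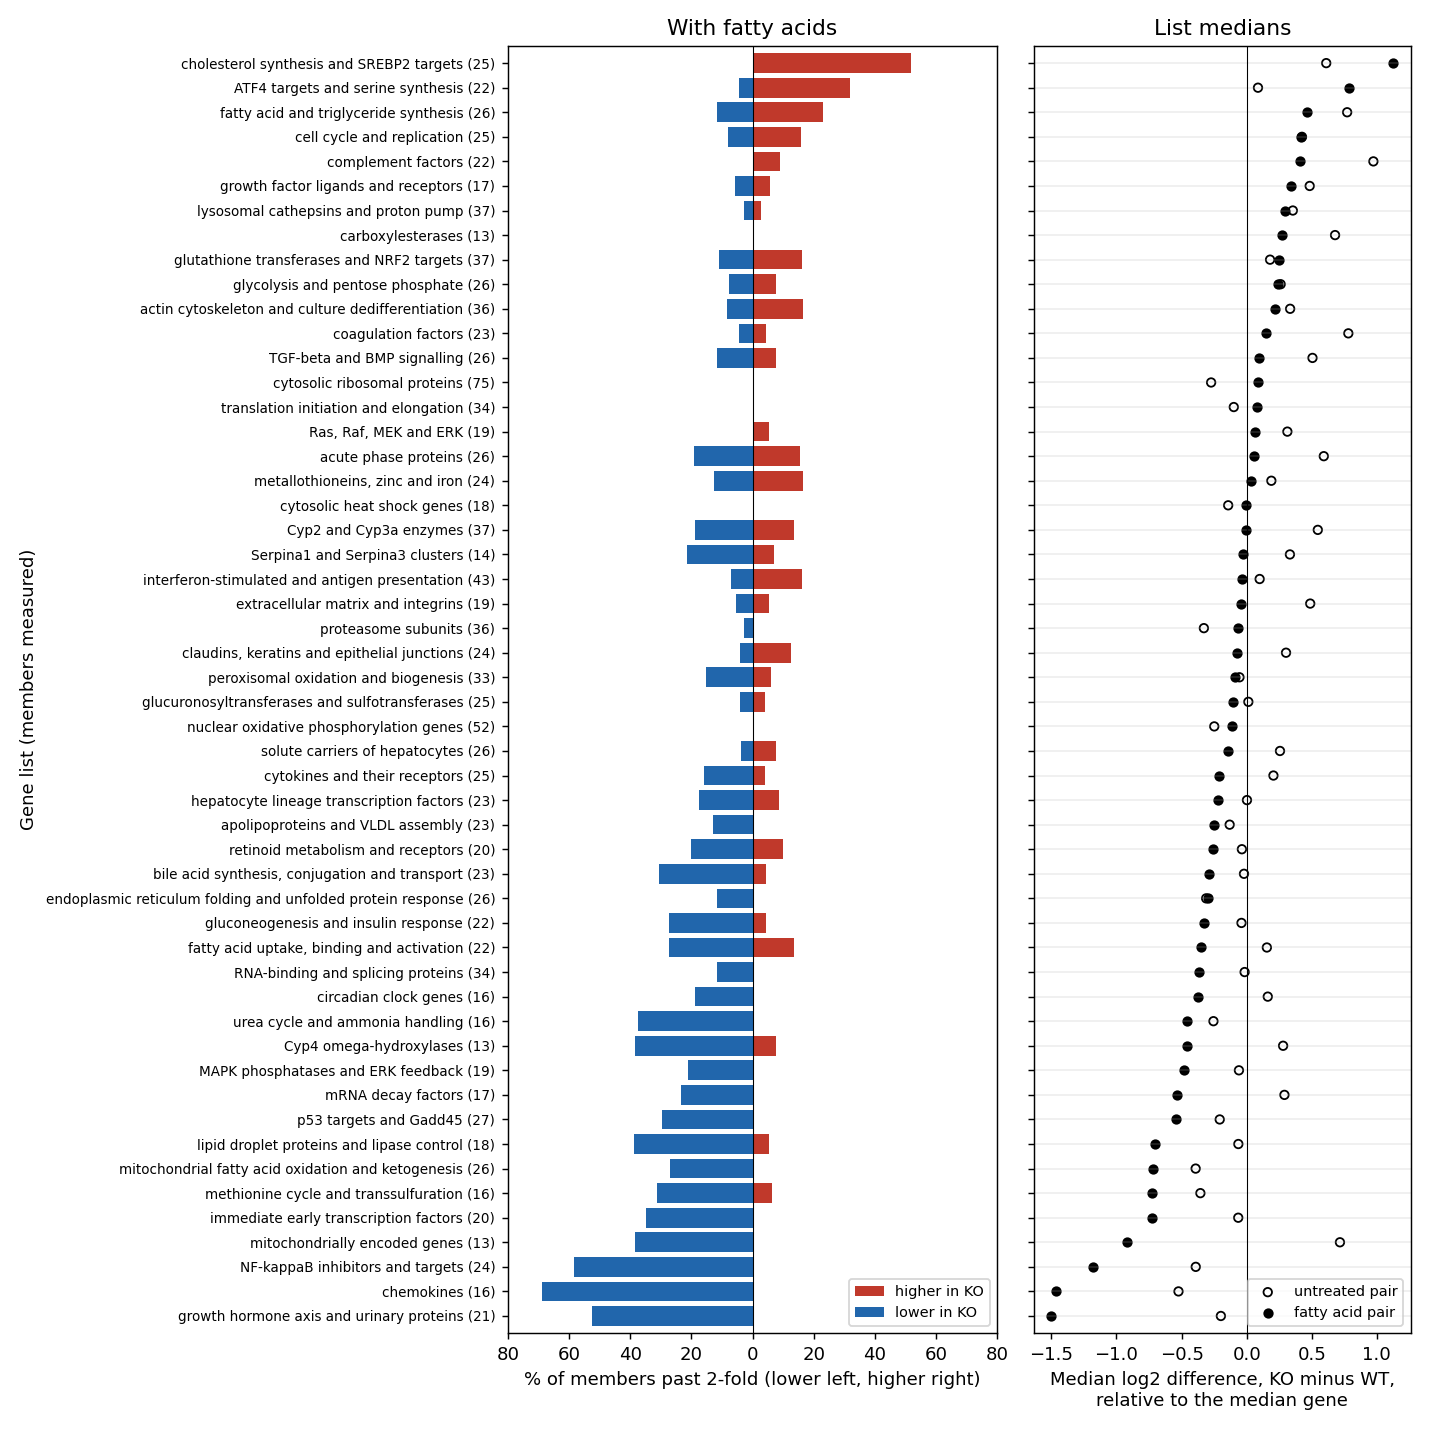
Left, for lists with at least 10 measured genes, the share of genes that were lower (blue, to the left) or higher (red, to the right) in KO with fatty acids by 2-fold relative to the median gene, with the number measured in parentheses; right, median log2 difference of each list in the fatty acid pair (filled) and the untreated pair (open). Cholesterol synthesis (13 of 25 higher, median 1.13) and ATF4 targets (0.79) lie at the top and the urinary protein list (-1.50), chemokines (-1.47) and the NF-κB list (-1.18) at the bottom. Adding 0.38 gives the deposited scale. Among all lists with a median of more than 0.1 in size, 14 medians change sign there, and so do several smaller ones.

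Drug-metabolizing enzymes moved in both directions, as did all measured genes (3.24% higher and 8.68% lower). Of 9 aryl hydrocarbon receptor targets 2 were higher, Cyp1a1 and Cyp1a2, and the median was -0.03 (0.34 on the deposited scale); the targets Nqo1 (0.38) and Tiparp (-0.72) did not pass. Of 37 Cyp2 and Cyp3a genes and their regulators 5 were higher and 7 lower (median -0.01; 9, 6 and 0.37 on the deposited scale). The nuclear receptor CAR gene Nr1i3 was at FPKM 1.95 in KO and 8.57 in WT, and its classical target Cyp2b10 at 17.2 and 51.8, then 17.9 and 46.2 untreated. Cyp2e1 was at 930 and 2348, whereas Cyp2a5 was at 1631 and 365 and Cyp2d40 at 44.6 and 7.79. Several of these belong to clusters of similar genes among which reads could be divided. Of 37 glutathione transferase and NRF2 target genes 6 were higher, with Gstm3 at 45.5 and 8.64, and 4 were lower, among them the heme oxygenase Hmox1 at 357 and 639 (median 0.25; 10 higher, 1 lower and 0.62 on the deposited scale). The sulfotransferase Sult1a1 was at 10.9 and 52.3.

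The bile acid and retinoid lists each held more lower than higher genes, as did all measured genes (8.68% lower and 3.24% higher). Of 23 bile acid genes 7 were lower and 1, Cyp2c70, was higher, but their median of -0.29 was 0.09 on the deposited scale, where 3 were lower and 2 higher. The conjugating enzyme Baat was at FPKM 3.60 in KO and 10.9 in WT, the phospholipid exporter Abcb4 at 18.0 and 38.5 and the bile salt pump Abcb11 at 13.2 and 25.3. Of 20 retinoid genes 4 were lower and 2 higher (median -0.26, and 0.12 with 3 and 3 on the deposited scale). The plasma retinol carrier Rbp4 was at 177 and 562 with fatty acids, then 312 and 409. Cyp26a1, a retinoic acid hydroxylase that retinoic acid induces, was at 11.8 and 1.08, then 10.0003 and 6.62. The WT library with fatty acids was the highest of the 4 for Rbp4 and the lowest for Cyp26a1.

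Id genes and iron and zinc genes went apart. Id1, a dominant negative partner of helix-loop-helix factors, was at FPKM 17.7 in KO and 2.22 in WT with fatty acids, and at 16.4 and 1.03 untreated. Its relative Id3 was at 42.9 and 145, then 34.9 and 20.9. The iron hormone hepcidin (Hamp) was at 40.9 and 87.1 with fatty acids and at 76.3 and 25.2 untreated. In both Id3 and Hamp KO lay below WT with fatty acids and above it untreated, whereas Id1 was higher in KO in both pairs. The difference between pairs in Id3 and Hamp was not tested. The metallothionein Mt2 was at 45.0 and 8.65, then 39.7 and 29.2, Mt1 was at 641 and 234, and the zinc importer Slc39a4 was at 5.67 and 21.9. Of 24 genes in the metallothionein, zinc and iron list 4 were higher and 3 lower (6 and 3 on the deposited scale). Of 26 TGF-beta and BMP genes 2 were higher and 3 lower (6 and 3 on the deposited scale), the activin subunits again apart, with Inhba at 1.75 and 7.02 and Inhbe at 6.13 and 0.567. Over all measured genes 3.24% were higher and 8.68% lower.

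Acute phase and antigen presentation genes were divided, as were all measured genes (3.24% higher and 8.68% lower). Of 26 acute phase genes 4 were higher and 5 lower (median 0.05; 9, 3 and 0.43 on the deposited scale). Serum amyloid Saa1 was at FPKM 4575 in KO and 1049 in WT, and the siderophore binder Lcn2 at 119 and 346, then 126 and 186 untreated. Of 22 complement genes 2 were higher, C8a (91.2 and 17.5) and C9 (93.7 and 33.7), and 0 lower (median 0.41; 7 higher and 0.78 on the deposited scale), against 11 higher and a median of 0.97 untreated. Of 43 interferon and antigen presentation genes 7 were higher and 3, near the share over all measured genes, were lower (median -0.04, 0.34 on the deposited scale). The higher ones included the class I genes H2-Q1 (119 and 24.5) and H2-Q10 (919 and 245), and the lower ones the class II chaperone Cd74 (5.98 and 14.4) and the immunoproteasome subunit Psmb9 (1.49 and 4.66).

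Growth control and cytoskeletal genes gave smaller groups, beside 3.24% of all measured genes higher and 8.68% lower. Of 27 p53 targets and Gadd45 genes 8 were lower and 0 higher (median -0.55; 5, 2 and -0.17 on the deposited scale), with the cell cycle inhibitor Cdkn1a at FPKM 14.2 in KO and 36.1 in WT, then 41.4 and 35.4 untreated. Of 25 cell cycle genes 4 were higher and 2 lower (median 0.42; 7, 0 and 0.79 on the deposited scale), with the replication helicase subunit Mcm4 at 7.26 and 1.54 and cyclin E (Ccne1) at 7.61 and 1.80. Of 36 actin and dedifferentiation genes 6 were higher and 3 lower (8 and 2 on the deposited scale). The lower shares of the cell cycle and actin lists lay near that of all measured genes. Vimentin (Vim), which hepatocytes gain in culture, was at 130 and 22.5, then 124 and 29.0, Rhob was at 138 and 26.1 and Ccn2 at 106 and 19.9, whereas the Rnd1 relative Rnd3 was at 35.5 and 113. Of 16 clock genes 3 were lower, the repressors Nr1d1 (0.682 and 4.38), Per1 (1.64 and 6.06) and Ciart (3.07 and 8.54). Nr1d1 was at 2.21 and 2.35 untreated.

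In housekeeping lists few genes passed, beside 8.68% lower and 3.24% higher over all measured genes. None of 75 cytosolic ribosomal protein genes, 34 translation factors, 52 nuclear oxidative phosphorylation genes or 18 cytosolic heat shock genes did, though on the deposited scale 3, 2, 1 and 1 of them did. Of 13 carboxylesterases, which are hepatocyte enzymes of ester and drug hydrolysis, 0 passed, but Ces2e (0.99), Ces1g (0.91) and Ces1d (0.89) lay just under the rule, 6 were higher on the deposited scale and 5 were higher untreated. Of 36 proteasome genes 1 passed, Psmb9. In contrast 5 of 13 mitochondrially encoded messages were lower (median -0.92; 2 and -0.55 on the deposited scale), with ND2 at FPKM 23.8 in KO and 53.5 in WT. Untreated, the same list stood at a median of 0.72 with 4 higher, and ND2 at 46.9 and 21.0.

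Markers of other liver cells were measured beside these groups. Of 10 macrophage markers 9 passed the level filter, and their summed FPKM was 96.7 in KO and 98.5 in WT with fatty acids (81.9 and 42.4 untreated). Marco (3.64 and 25.3), Adgre1 (4.03 and 12.4) and Csf1r (2.82 and 5.61) were lower, Clec4f (7.82 and 1.81) was higher, and C1qb (0.15), Cd68 (0.29) and Vsig4 (-0.30) did not pass. The markers thus did not move one way, and their part in the lower chemokines and NF-κB genes was not tested. Of 8 endothelial markers 4 passed the filter, summing to 11.4 in KO and 11.5 in WT. Of 8 stellate markers only Dcn did, at 1.45 and 0.434, and Col1a1 had 0 reads in both libraries of the pair. Of 7 cholangiocyte markers 2 did, at a sum of 22.5 and 15.8, and Krt7 and Cftr had 0 reads. Of 7 leukocyte markers 3 did, at 10.4 and 11.9, with Ly6g and Nkg7 at 0 reads. The 5 red cell genes summed to 75.2 and 121, with 3 lower and Alas2 higher. Hepatocyte markers were abundant in both libraries, with albumin (Alb) at 4336 and 3475 and transthyretin (Ttr) at 1098 and 431, but Apoa1 was at 957 and 1192, and Cps1, also a urea cycle gene, was lower at 18.6 and 97.1.

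Noncoding classes held larger shares of lower genes. Of 10079 protein-coding genes 342 (3.39%) were higher and 679 (6.74%) lower, with a median of -0.02, whereas on the deposited scale 1106 were higher and 322 lower. Of 330 long noncoding RNAs 7 were higher and 113 (34.2%) lower (median -0.73), of 60 small nuclear RNAs 1 and 31 (51.7%; median -1.02), of 185 small nucleolar RNAs 1 and 49 (26.5%; -0.59), of 50 microRNA genes 1 and 19 (38.0%; -0.45) and of 61 tRNA genes 0 and 46 (75.4%; -1.33). Untreated, the medians were -0.14 for long noncoding RNAs, -0.14 for small nuclear RNAs and -0.14 for tRNA genes. The medians stayed below 0 on the deposited scale, at -0.35, -0.64, -0.21, -0.07 and -0.95 in the same order of classes, and the numbers of lower genes fell to 55, 23, 19, 13 and 29. Small RNAs are poorly captured by total RNA libraries, and the tRNA genes together held 0.0163% of KO and 0.0239% of WT reads, so their calls rest on few reads.

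**Figure D4:**
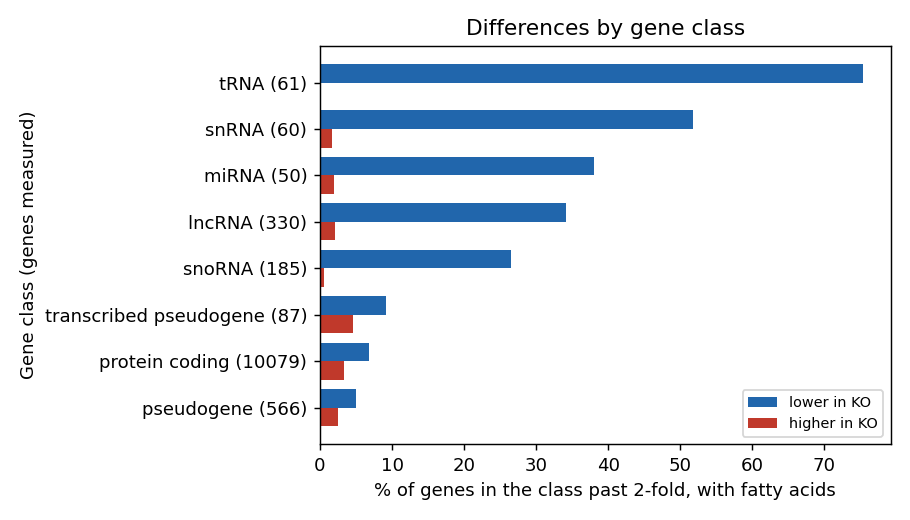
Share of genes of each class that were lower (blue) or higher (red) in KO with fatty acids by 2-fold relative to the median gene; the number of genes measured is in parentheses. tRNA genes (75.4% lower), small nuclear RNAs (51.7%) and long noncoding RNAs (34.2%) lie above protein-coding genes (6.74%), and the class medians keep their sign on the deposited scale except that of protein-coding genes (-0.02, and 0.36 there) and of the pseudogene classes.

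The lower genes also spread by level. At an FPKM of 1 to 5 in the higher library 418 of 4002 genes (10.4%) were lower and 36 (0.90%) higher, and at 100 or more 99 of 714 (13.9%) were lower and 34 (4.76%) higher. In between, at 20 to 100, 164 of 2573 (6.37%) were lower and 150 (5.83%) higher. The pseudocount of 1 shrinks differences of low genes on the deposited scale, from which 0.38 is then subtracted. Low genes that differ little therefore lean to the lower side relative to the median gene.

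Transcript features of the called protein-coding genes were described from GENCODE M21, which has a transcript for 339 of 342 higher and 656 of 679 lower genes. The median transcript was 2152 bases long in higher genes, 2516 in lower genes and 2795 in all measured ones, and median GC content was 53.9%, 48.3% and 50%. The AU-rich heptamer TATTTAT was found in the 3′UTR of 43 of 332 higher genes (13%), 174 of 641 lower genes (27.1%) and 2612 of 9834 measured genes (26.6%). Higher genes had shorter 3′UTRs, with a median of 554 bases against 797 and 908. Split into 3 classes of 3′UTR length, the shares in higher, lower and all measured genes were 4.86%, 5.96% and 6.81% for short, 14.2%, 30.5% and 23.3% for middle and 27.9%, 52.1% and 49.4% for long 3′UTRs. Lower genes thus stood above all measured genes in the middle class, slightly above in the long class and below in the short class. The heptamer occurred 7 times in Cxcl2, 6 times in Cxcl1, 5 times in Il23a, 3 times in Zfp36 and 3 times in Zfp36l1. Other lower inflammatory genes were divided. The heptamer occurred 8 times in Tnf, 3 times in Il1b and 2 times each in Icam1, Nfkbia and Tnfaip3. It was absent from the 3′UTRs of Ccl2, Ccl7, Cxcl10, Nfkbiz and Il1rn, as from Cyp4a14, Cyp1a1 and Txnip.

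By position, the lower genes were spread over the autosomes and the X chromosome, from 5.87% of genes on the latter to 11.3% on chromosome 12. On chromosome 10, which carries Dusp6, 18 of 545 genes were higher and 55 (10.1%) lower. Within 2 Mb of Dusp6 the measured neighbours Dcn (0.39), Atp2b1 (-0.09), Galnt4 (-0.05), Gm34777 (-0.31), Kitl (-0.01), Tmtc3 (-0.31) and 4930430F08Rik (0.34) did not pass. The centrosomal gene Cep290 was lower at -1.22, with an FPKM of 1.28 in KO and 3.09 in WT, but it was level untreated at 1.84 and 1.87.

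The untreated pair shares no library with the fatty acid pair and gives the KO and WT difference in cultures without fatty acids. The animals behind each culture are not given, so agreement between the pairs does not replicate the genotype difference. Of the 372 higher genes 145 (39.0%) were also past 2-fold higher untreated, which is 36.1% of the 402 untreated higher calls, and 345 (92.7%) had the same sign, beside 56.6% of all measured genes with that sign. Of the 995 lower genes 185 (18.6%) were also past 2-fold lower untreated, which is 78.4% of the 236 untreated lower calls, and 733 (73.7%) had the same sign, beside 43.4%. Among measured genes 3.51% were called higher and 2.06% lower untreated. The median log2 difference of the higher genes was 1.26 with fatty acids and 0.76 untreated, and that of the lower genes was -1.38 and -0.36. Over the 11467 genes the 2 differences had a Pearson correlation of 0.52 and a Spearman correlation of 0.40, across genes that are not independent replicates.

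**Figure D5:**
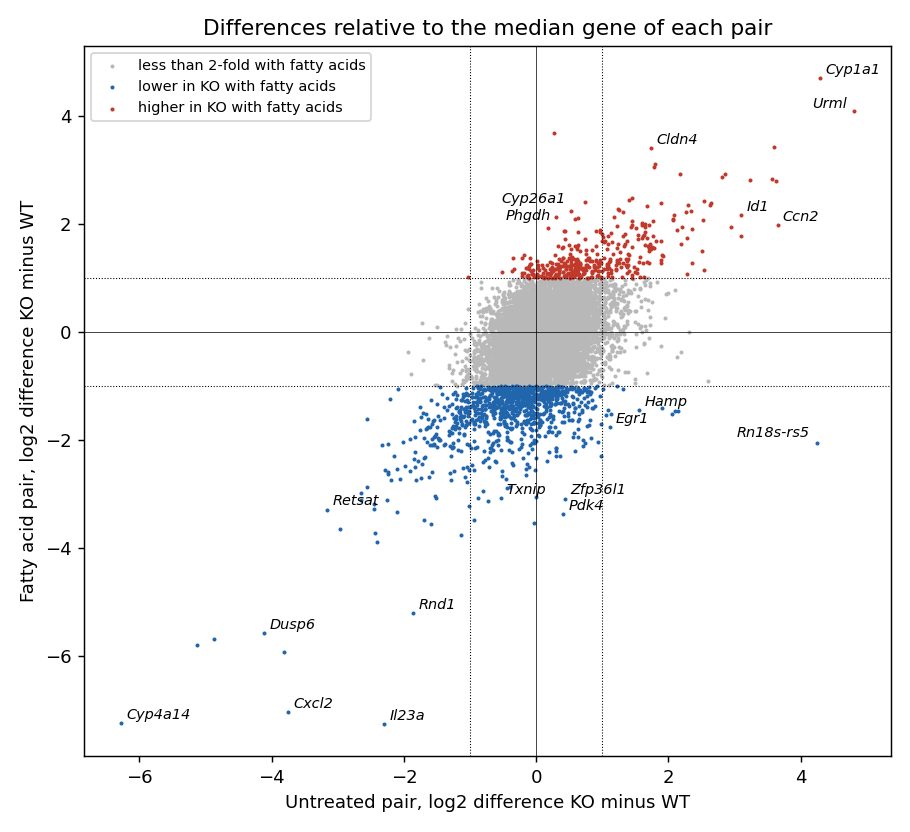
Log2 difference, KO minus WT, of each of the 11467 genes in the fatty acid pair (vertical axis) against the untreated pair (horizontal axis), each relative to its own median gene, with dotted lines at 2-fold. Cyp4a14, Cxcl2 and Dusp6 lie far down in both pairs and Cyp1a1 and Urml far up in both, while Pdk4, Zfp36l1 and Txnip are low in the fatty acid pair and less than 2-fold apart untreated, and Egr1, Hamp and Rn18s-rs5 lie on opposite sides.

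Read by role, genes far apart in both pairs included Cyp4a14, Cyp4a10, Cyp4a31, Cyp4a32, Serpina3c, Retsat, Ehhadh, Mat1a, Arg1, Mup1 and Mup17 on the lower side, and Cyp1a1, Cyp1a2, Car3, Cyp2c70 and Cyp21a1 on the higher side. Those past 2-fold with fatty acids and under 2-fold untreated included Pdk4 (-3.37 and 0.40), Zfp36l1 (-3.09 and 0.43), Txnip (-3.08 and -0.54), Areg (-2.49 and -0.11), Nr1d1 (-2.05 and -0.06) and Rbp4 (-2.04 and -0.39) on the lower side. On the higher side they included Fdps (2.41 and 0.74), Cyp26a1 (2.25 and 0.53), Phgdh (2.12 and 0.30) and Mt2 (1.88 and 0.43). These examples were picked after their values were seen, and the difference between the pairs was not tested.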

How the data were processed

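Total RNA of mouse hepatocytes was sequenced with a stranded kit (TruSeq Stranded Total RNA), per the labels' protocols. Per the submitters' processing notes the build was mm10 and the tools were HISAT2 2.1.0, StringTie 2.1.3b, Bowtie2, Trimmomatic 0.38 and FastQC 0.11.7, with no roles stated. No source used here gives the counting rule, strand setting or annotation release, so overlapping and antisense genes cannot be told apart. The authors deposited whole read counts, FPKM (scaled to length and library) and TPM per gene, per the file headers.

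Genes with FPKM of at least 1 in either library of the pair were kept, log2(FPKM + 1) was compared, and a 2-fold rule relative to the median gene replaced a test, which 1 library a group does not allow. The pseudocount shrinks differences of low genes on the deposited scale. Taken relative to the median gene with fatty acids, low genes that differ little therefore lean to the lower side. Deposited counts gave CPM ratios with exact binomial 95% intervals; reads are not independent molecules. The genes and lists were chosen with earlier results of these data known. Lists held 1521 genes in 60 lists, of which 1308 were measured. Named genes were Dusp6, the 20 lowest and 20 highest (FPKM of at least 5 and 50 reads in the higher library, without predicted genes, pseudogenes and small RNAs), up to 5 per list with the largest difference, genes within 2 Mb of Dusp6 and the 5 genes with the most reads in 1 library only; others named were chosen after their values were seen. Some genes taken by the rule are not reported here. Coordinates and promoters are RefSeq on GRCm38.p6 (mm10), matched by Entrez identifier for 99.8% of genes and 73.9% of genes respectively. Alternatives were other pseudocounts, filters, scalings and fold rules, with TMM from edgeR 4.0.16 on R 4.3.3. Other steps used Python 3.11.15, numpy 2.4.6, pandas 2.3.3 and scipy 1.17.1. The code that applies the size rule was run on simulated counts. These did not model animals, cultures or the unlike shares of abundant RNAs, so they do not show how reliable the calls are.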

Additional observations from a re-analysis of the deposited data

Results flagged for a closer look

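Of the measured genes, 14 passed 2-fold in opposite directions in the 2 pairs, and 6 of them are not predicted genes, transfer RNAs or small nuclear RNAs. Each is given because KO was lower than WT with fatty acids and higher untreated, and the difference between the pairs was not tested. The immediate early factor Egr1 had a log2 difference of -1.77 with fatty acids and 1.12 untreated, and the iron hormone gene Hamp -1.45 and 1.56. The cell surface proteoglycan gene Gpc4 had -1.06 and 1.32, with an FPKM of 2.86 in KO and 5.20 in WT with fatty acids and of 8.46 and 2.79 untreated. The mitochondrial messages ND2 and CYTB had -1.51 and -1.01 with fatty acids and 1.12 and 1.22 untreated. The ribosomal RNA copy Rn18s-rs5 had -2.05 and 4.24, with 3387 reads in KO and 10461 in WT with fatty acids but 101973 and 5188 untreated, so that the KO untreated library stood apart. On the deposited scale Gpc4 (-0.68) and CYTB (-0.63) did not pass 2-fold with fatty acids.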

How the results depend on the processing

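Relative to the median gene, 372 genes were higher, 995 lower and 330 of these past 2-fold the same way untreated. A pseudocount of 0.1 gave 792 higher, 1338 lower and 621 shared, and a pseudocount of 5 gave 156 higher, 385 lower and 153 shared. A filter at FPKM 5 gave 577 lower, and excluding small RNAs, pseudogenes and predicted genes gave 659 lower. Without centring, the deposited scale gave 1172 higher and 498 lower, and TPM gave 3325, 355 and 754 shared. CPM with TMM scaling gave 794 higher and 823 lower, so that lower genes no longer clearly outnumbered higher ones, and CPM relative to the median gene gave 585 and 1037. A 1.5-fold rule gave 1323, 2275 and 998, and a 4-fold rule 40, 153 and 48. Protein-coding genes alone, an alternative chosen after seeing the data, gave 342 higher, 679 lower and 271 shared. The cause of these shifts was not tested, except that fewer genes were counted under the filters.

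Of 217 named genes past 2-fold, 217 stayed past it in their direction with a pseudocount of 0.1, 164 with 5, 182 on the deposited scale (74 of 74 higher and 108 of 143 lower), 155 in TPM, 210 with TMM and 215 in CPM relative to the median gene. Sign changes were counted only for lists whose median was more than 0.1 in size. Of these, 14 changed sign on the deposited scale, 24 in TPM and 1 with TMM. Lists with smaller medians, several of which also changed sign on the deposited scale, were not counted. No paired analysis was possible because each group holds 1 library, and no replicate was left out for the same reason.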
